A study of Mus musculus with 40 samples.

Results

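The 9 genes described here encode proteins of the tight junction, the belt that seals neighbouring epithelial cells to each other near their free surface. They are the claudin genes Cldn1, Cldn3, Cldn4, Cldn7, Cldn8 and Cldn23, the occludin gene Ocln, the ZO-1 gene Tjp1 and the JAM-A gene F11r. They were chosen by symbol, and all 9 symbols matched 1 row each among the 53465 Ensembl genes of the count table. All 9 were among the 16921 genes that passed the filter on low counts, although Cldn3 passed it only through its WT libraries.

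Claudins are small membrane proteins that assemble into strands and set which ions and solutes pass between cells. Occludin lies in the same strands, JAM-A is an adhesion molecule of the immunoglobulin family, and ZO-1 is a scaffold under the membrane that holds claudins, occludin and JAM-A and ties them to actin. In the bladder, the junctions of the superficial umbrella cells are part of the barrier against urine.

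RNA-seq was made from organoids of urothelial cells of the mouse bladder, either double knockouts of Kmt2c and Kmt2d (Kmt2c_Kmt2d_dKO) or wild type (WT), in medium with EGF, Noggin, R-spondin, the ROCK inhibitor Y-27632 and the TGF-beta receptor inhibitor A83-01. Kmt2c and Kmt2d encode histone H3K4 methyltransferases that act at enhancers. Each genotype received MI-503, a small molecule that blocks the binding of menin to KMT2A, at 1 µM for 4 days, or the solvent DMSO. The 4 groups were dKO MI-503, dKO DMSO, WT MI-503 and WT DMSO, with 2 libraries each, and their comparison asks what loss of the enhancer methyltransferases and blockade of menin do to the transcriptome. How the knockout was made, and whether the cells of a genotype come from 1 clone or animal or the replicates from separate cultures, was not stated by the labels, so p-values measure only the spread between these libraries.

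Library totals ran from 58113705 to 68571176 counts. Kmt2c measured 53.8 ± 2.08 CPM in dKO DMSO and 111 ± 0.476 CPM in WT DMSO, whereas Kmt2d measured 122 ± 15.7 CPM in dKO DMSO and 91.0 ± 6.26 CPM in WT DMSO (SD, n = 2 each). Kmt2d RNA was thus not lower in the knockout libraries, and since the counts cover whole genes, a loss of some exons would not show, so the groups are called labelled dKO. Kmt2c RNA was also lower with MI-503, at 61.0 ± 0.980 CPM in WT MI-503 and 28.2 ± 2.24 CPM in dKO MI-503. A lower Kmt2c level thus does not by itself mark the knockout. All 11 epithelial and urothelial markers had at least 1 CPM in every library, Krt5 being the highest. Of 7 endothelial markers, 0 reached 1 CPM in any library, and Dcn, Lum and Col1a2 of fibroblasts were at 0 counts in all 8 libraries. Among 7 fibroblast markers only Pdgfra, among 6 smooth muscle markers only Acta2 and among 7 immune markers only Cd68, which is also a lysosomal protein of other cells, reached 1 CPM in any library. Both WT DMSO libraries stood apart from the other 6. In them 13 chaperone genes of the endoplasmic reticulum took 3.59% and 3.86% of the counts, against 0.370% to 0.505% in the other 6 libraries. Their TMM factors, which scale library size, were 0.896 and 0.892, against 1.007 to 1.062. The part of the chaperone genes in the comparisons with WT DMSO was not tested.

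Reference sequence before the start of 4 of the genes is shown because these genes show 3 different responses to MI-503, not all that were seen: Cldn1 went opposite ways in the 2 genotypes, Cldn4 was higher in both, and Ocln and F11r were lower in both. Each is the 250 bases upstream of the annotated gene start in RefSeq, build GRCm38.p6, written 5′ to 3′ on the gene's strand. Capitals mark the E-box CACCTG, the AP-1 motif TGANTCA and the GC box GGGCGG, on either strand.
Cldn1, chr16:26371840-26372089, minus strand: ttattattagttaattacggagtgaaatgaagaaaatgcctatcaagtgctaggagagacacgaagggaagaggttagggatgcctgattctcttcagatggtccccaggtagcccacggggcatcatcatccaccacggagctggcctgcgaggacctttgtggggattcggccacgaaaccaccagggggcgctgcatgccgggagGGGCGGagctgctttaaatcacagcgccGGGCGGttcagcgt
Cldn4, chr5:134946935-134947184, minus strand: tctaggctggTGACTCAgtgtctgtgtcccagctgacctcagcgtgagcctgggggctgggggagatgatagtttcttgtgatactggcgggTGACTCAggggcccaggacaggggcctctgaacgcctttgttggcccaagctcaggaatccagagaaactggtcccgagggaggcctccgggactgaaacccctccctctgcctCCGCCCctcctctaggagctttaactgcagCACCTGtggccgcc
Ocln, chr13:100552719-100552968, minus strand: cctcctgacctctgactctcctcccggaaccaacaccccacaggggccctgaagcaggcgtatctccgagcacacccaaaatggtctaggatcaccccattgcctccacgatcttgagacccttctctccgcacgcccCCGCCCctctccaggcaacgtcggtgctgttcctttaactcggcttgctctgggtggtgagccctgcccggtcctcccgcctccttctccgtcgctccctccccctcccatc
F11r, chr1:171437311-171437560, plus strand: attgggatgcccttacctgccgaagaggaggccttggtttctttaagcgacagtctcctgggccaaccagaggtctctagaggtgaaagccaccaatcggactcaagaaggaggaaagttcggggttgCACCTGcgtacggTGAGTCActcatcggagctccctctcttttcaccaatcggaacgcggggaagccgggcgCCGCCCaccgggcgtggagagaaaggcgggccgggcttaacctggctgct

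The table of promoters held a window for 7 of the 9 genes, with a second start for Cldn7 and for Ocln, so 9 windows in all; Cldn8 and Cldn23 had no entry. An E-box was found in 17.2% of all 32807 such windows and in those of Cldn4, F11r, the second start of Cldn7 and the second start of Ocln. AP-1 motifs, present in 6.75% of all windows, were found in the windows of Cldn4, which holds 2, and F11r, which holds 1. The GC box, present in 32.7% of all windows, was in each window except that of the first start of Cldn7. Neither the TATA box TATAAA (12.4% of all windows) nor the grainyhead motif AACNNGTT (3.64%) was found, and no 2 matches overlapped. CpG dinucleotides numbered 14 at Cldn1, 9 at Cldn3, 7 at Cldn4, 6 and 10 at Cldn7, 14 and 22 at Ocln, 22 at Tjp1 and 17 at F11r, where the median window holds 6 and the upper quartile begins at 16. These counts describe the letters of the windows and were not set against binding data, which were not analysed here.

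Levels are given below as CPM, counts scaled to library size with TMM factors, per library or as mean ± SD of both libraries. Differences are log2 fold changes with their standard error (SE), from edgeR's quasi-likelihood F test fitted to all 16921 genes, with p adjusted by Benjamini-Hochberg over all of them and a threshold of 0.05. Genes past it are said to have risen or fallen. CPM are not divided by transcript length, so levels are compared between groups and not between genes.

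**Figure D1:**
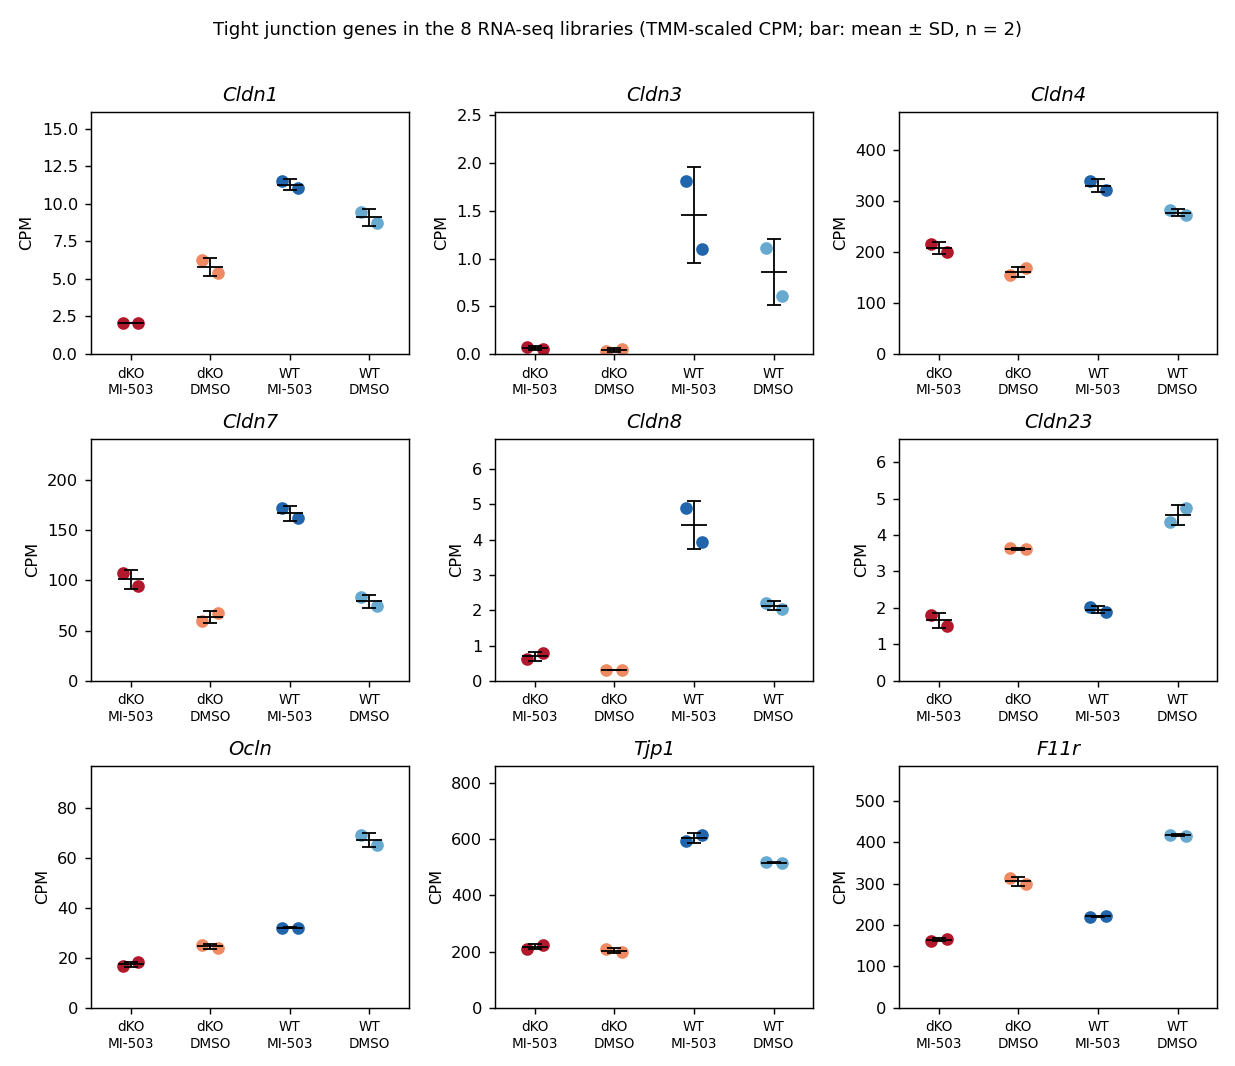
Each panel plots 1 gene, with TMM-scaled CPM on the y axis from 0 and the 4 groups on the x axis; points are libraries and bars the mean ± SD of 2 libraries. For Tjp1, both dKO groups lie between 198 and 223 CPM and both WT groups between 516 and 616 CPM, and in the panel of Cldn1 the dKO MI-503 libraries, at 2.08 and 2.06 CPM, are the lowest.

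In DMSO, RNA of the tight junction genes was lower in the cells labelled dKO. The 8 members other than Cldn3 all fell, by between 1.25-fold for Cldn7 and 7.07-fold for Cldn8. Cldn3 was lower too, but it is not counted, since it passed the filter only through its WT libraries. In each of the 8 members counted, the 2 labelled dKO libraries lay below the 2 WT libraries. How many of all genes were separated in this way was not counted, so this separation only describes the values. Among all genes tested, 65.4% were called in this comparison, 29.6% higher and 35.8% lower. The median log2 fold change of the 8 members was -0.72, against -0.052 over all genes tested.

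Tjp1 (ENSMUSG00000030516, chromosome 7, 65296165 to 65527850), the gene of the scaffold ZO-1, measured 209 and 198 CPM in dKO DMSO and 517 and 516 CPM in WT DMSO. The libraries of a group differed far less than the groups did. The fall was 2.54-fold (log2 fold change -1.34, SE 0.049, adjusted p = 3.17e-11). Ocln (ENSMUSG00000021638, chromosome 13, 100496504 to 100552718), which encodes the strand protein occludin, measured 25.2 and 23.8 CPM in dKO DMSO and 69.2 and 65.0 CPM in WT DMSO. Its groups were likewise far apart, and it fell 2.74-fold (log2 fold change -1.45, SE 0.065, adjusted p = 2.26e-10). F11r (ENSMUSG00000038235, chromosome 1, 171437561 to 171464593), the gene of JAM-A, measured 313 and 298 CPM in dKO DMSO and 418 and 415 CPM in WT DMSO. Its fall was smaller, 1.36-fold (log2 fold change -0.45, SE 0.044, adjusted p = 7.65e-07).

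The claudins were lower by very different amounts. Cldn8 (ENSMUSG00000050520, chromosome 16, 88560826 to 88563183), a claudin known from the distal nephron, measured 0.303 and 0.294 CPM in dKO DMSO and 2.21 and 2.03 CPM in WT DMSO. It was low in every library, and it fell 7.07-fold (log2 fold change -2.82, SE 0.24, adjusted p = 1.39e-07). Cldn3 (ENSMUSG00000070473, chromosome 5, 134986214 to 134987476), which with claudin-4 is a receptor of the Clostridium perfringens enterotoxin, had 2 and 4 counts in the dKO DMSO libraries and 68 and 37 counts in the WT DMSO libraries. The labelled dKO libraries were thus near 0. Since it passed the filter only through WT, its lower value is given as a description: the ratio of summed counts scaled by library, dKO over WT, was 0.0507 (95% exact interval 0.0182 to 0.114, counting error only).

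Cldn4 (ENSMUSG00000047501, chromosome 5, 134945123 to 134946934), the other enterotoxin receptor, lies near Cldn3 on chromosome 5. It measured 154 and 167 CPM in dKO DMSO and 281 and 272 CPM in WT DMSO. It fell 1.72-fold (log2 fold change -0.78, SE 0.056, adjusted p = 2.78e-08). Cldn1 (ENSMUSG00000022512, chromosome 16, 26356645 to 26371839), the claudin without which newborn mice lose water through the skin, measured 6.23 and 5.40 CPM in dKO DMSO and 9.49 and 8.71 CPM in WT DMSO, a log2 fold change of -0.65 (SE 0.10, adjusted p = 6.59e-05).

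The remaining falls were small. Cldn7 (ENSMUSG00000018569, chromosome 11, 69964779 to 69967886), a claudin that also binds EpCAM along the lateral membrane, measured 59.1 and 67.4 CPM in dKO DMSO and 83.7 and 74.2 CPM in WT DMSO. The gap between the groups was narrower than that within either, and the log2 fold change was -0.32 (SE 0.079, adjusted p = 0.00288). Scaled by library size only, without TMM, the call of Cldn7 ended (log2 fold change -0.089, adjusted p = 0.351). That scaling moved the median of all genes by 0.23 in this comparison and raised the share of higher genes among the calls to 61.7%, against 45.3% with TMM. Cldn23 (ENSMUSG00000055976, chromosome 8, 35824709 to 35826559), a claudin gene of gut and other epithelia, measured 3.64 and 3.60 CPM in dKO DMSO and 4.35 and 4.75 CPM in WT DMSO. Its log2 fold change of -0.33 (SE 0.13, adjusted p = 0.0363) was the weakest of the 8 calls and ended under DESeq2 (adjusted p = 0.251), RLE size factors (0.0611), library size only (0.506), both other filters on low counts (0.192 with none and 0.101 with a stricter one), a fit of only these groups (0.109) and a replicate block (0.0520). It also ended without dKO DMSO replicate 1 (0.0917), dKO DMSO replicate 2 (0.112) or WT DMSO replicate 2 (0.172).

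Markers of the urothelial layers differed between the same groups. The 8 umbrella cell markers summed to 294.3 CPM in both dKO DMSO libraries and to 425 and 450.2 CPM in the WT DMSO libraries, and 4 of the 8 in dKO DMSO and 5 of the 8 in WT DMSO had at least 1 CPM in both libraries. The difference in this sum came from Psca, at 139.7 ± 6.17 CPM in dKO DMSO and 294.1 ± 18.5 CPM in WT DMSO, while Upk1b did not pass (140.5 ± 5.20 CPM in dKO DMSO and 138.1 ± 0.698 CPM in WT DMSO, adjusted p = 0.701). Of the 7 umbrella markers tested, 4 fell, 2 rose and 1 did not pass, where 35.8% of all genes fell and 29.6% rose. Upk3b, among the 4 that fell, passed the filter only through its WT libraries, so its direction is no result. Those that rose were Krt20 (10.8 ± 0.763 CPM in dKO DMSO and 0.320 ± 0.0847 CPM in WT DMSO) and Upk3a (2.09 ± 0.0645 CPM in dKO DMSO and 0.229 ± 0.0903 CPM in WT DMSO). The 8 basal markers, among them Krt5, Krt14 and Trp63, summed to between 24944 and 27213 CPM in dKO DMSO and to between 10847 and 11731 CPM in WT DMSO. In bulk RNA, fewer cells of a type and less RNA per cell cannot be told apart, and the part of these markers in the falls was not tested.

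**Figure D2:**
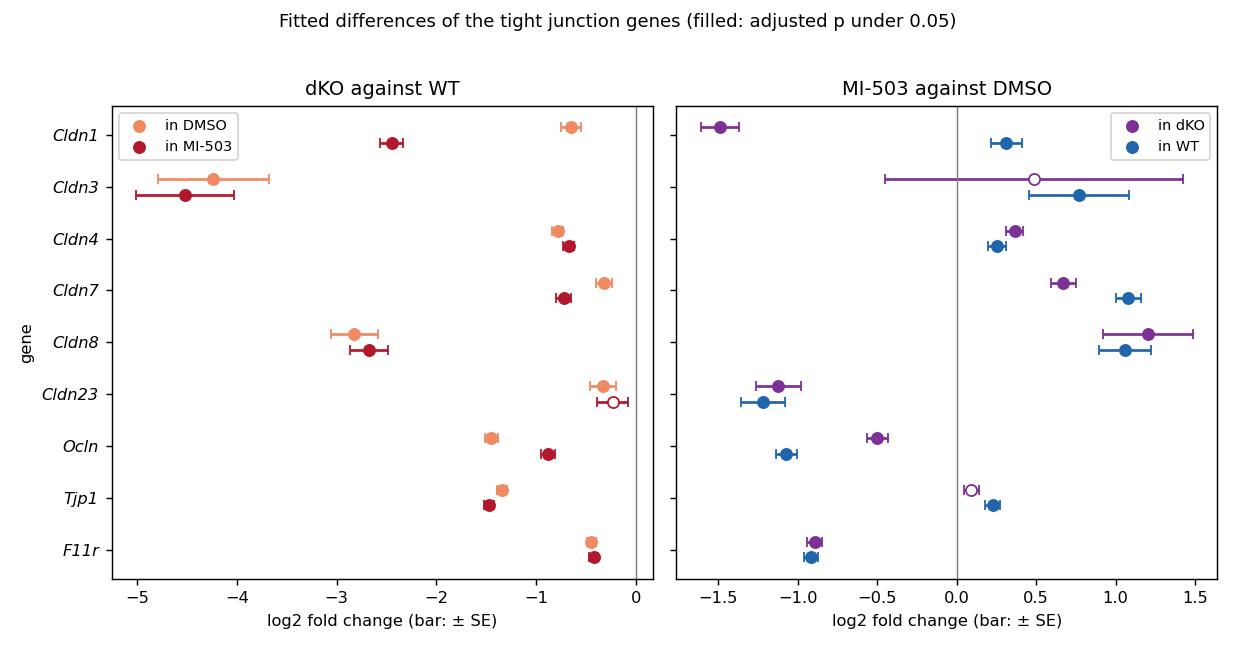
Points give the log2 fold change of each gene on the x axis, with bars of ± SE and the 9 genes down the y axis; the left panel compares dKO with WT in DMSO and in MI-503, the right panel MI-503 with DMSO in dKO and in WT. In the left panel all 18 points lie below 0, those of Cldn3 included, which passed the filter only through WT. Only Cldn23 in MI-503 is open there, that is, not past the threshold. In the right panel the genes lie on both sides of 0.

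With MI-503 in both genotypes, the same 9 genes were again mostly lower in the labelled dKO cells. The group means compared here are those of the MI-503 libraries, while the spread was estimated over all 8. Of the 8 members other than Cldn3, 7 fell and 0 rose, where 55.1% of all genes were called, 26.6% higher and 28.5% lower. Their median log2 fold change was -0.80, against 0.0071 over all genes tested. The exception was Cldn23, at 1.81 and 1.51 CPM in dKO MI-503 and 2.02 and 1.89 CPM in WT MI-503 (log2 fold change -0.23, SE 0.15, adjusted p = 0.223).

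Tjp1 measured 210.5 and 223 CPM in dKO MI-503 and 592 and 616 CPM in WT MI-503, a fall of 2.78-fold (log2 fold change -1.48, SE 0.049, adjusted p = 1.66e-11). Cldn1 measured 2.08 and 2.06 CPM in dKO MI-503 and 11.5 and 11.05 CPM in WT MI-503. Its groups were much further apart here than in DMSO, at 5.46-fold (log2 fold change -2.45, SE 0.11, adjusted p = 4.81e-10). Ocln measured 16.6 and 18.1 CPM in dKO MI-503 and 31.9 and 32.1 CPM in WT MI-503, a fall of 1.84-fold (log2 fold change -0.88, SE 0.067, adjusted p = 8.32e-08).

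Cldn8 fell 6.39-fold in this comparison (adjusted p = 4.12e-08). Cldn3, which passed the filter only through WT, is again given as a description, with 8 counts in dKO MI-503 and 190 in WT MI-503. Its ratio of scaled sums was 0.0418 (95% exact interval 0.0178 to 0.0841, counting error only, without the spread between libraries). Cldn4, Cldn7 and F11r fell by 0.67, 0.73 and 0.42 on the log2 scale, with adjusted p of 2.06e-07, 2.73e-06 and 2.38e-06. Umbrella markers summed to between 218 and 223 CPM in dKO MI-503 and to between 519 and 528 CPM in WT MI-503, a difference again carried by Psca (109.7 ± 0.637 CPM in dKO MI-503 and 416.7 ± 0.716 CPM in WT MI-503). Of the 7 tested, 4 fell, 2 rose (Krt20 and Upk3a) and 1, Upk1b, did not pass, where 28.5% of all genes fell and 26.6% rose. Upk3b, which passed the filter only through WT, is again among the 4 that fell. Basal markers summed to between 23218 and 25749 CPM in dKO MI-503 and to between 14610 and 15328 CPM in WT MI-503. Their part in these differences was not tested.

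MI-503 did not move the tight junction genes 1 way. In labelled dKO cells Cldn4, Cldn7 and Cldn8 rose and Cldn1, Cldn23, Ocln and F11r fell, so that 7 of 9 were called, 3 higher and 4 lower. Over all genes tested 55.6% were called there, 29.1% higher and 26.5% lower. In WT cells Cldn1, Cldn3, Cldn4, Cldn7, Cldn8 and Tjp1 rose and Cldn23, Ocln and F11r fell, 9 of 9, where 69.0% of all genes were called, 35.2% higher and 33.7% lower. The median log2 fold change of the members was 0.093 in labelled dKO and 0.25 in WT cells, against 0.031 over all genes in both. Without Cldn3, which had few counts in dKO, it was -0.20 in labelled dKO and 0.24 in WT cells.

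The rises were largest in Cldn7 and Cldn8. Cldn7 measured 107 and 94.1 CPM in dKO MI-503 and 59.1 and 67.4 CPM in dKO DMSO, a rise of 1.59-fold (log2 fold change 0.67, SE 0.079, adjusted p = 6.45e-06). In WT it measured 172 and 161 CPM with MI-503 and 83.7 and 74.2 CPM with DMSO, a rise of 2.11-fold (log2 fold change 1.08, SE 0.079, adjusted p = 2.33e-08). In both genotypes the libraries with MI-503 lay well above those with DMSO. Cldn8 measured 0.609 and 0.778 CPM in dKO MI-503 and 0.303 and 0.294 CPM in dKO DMSO (log2 fold change 1.20, SE 0.28, adjusted p = 0.00232). In WT it measured 4.90 and 3.93 CPM with MI-503 and 2.21 and 2.03 CPM with DMSO (1.06, SE 0.16, adjusted p = 5e-05). Its level in dKO MI-503 stayed below that of every WT library.

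Cldn4 rose less, to 215 and 199 CPM in dKO MI-503, against 154 and 167 CPM in dKO DMSO (log2 fold change 0.36, SE 0.056, adjusted p = 7.74e-05). In WT it measured 339 and 321 CPM with MI-503 and 281 and 272 CPM with DMSO (0.25, SE 0.055, adjusted p = 0.00101). Both dKO groups of Cldn4 lay below both WT groups. Tjp1 measured 210.5 and 223 CPM in dKO MI-503 and 209 and 198 CPM in dKO DMSO, which did not pass (0.093, SE 0.049, adjusted p = 0.126). The WT libraries had 592 and 616 CPM with MI-503 and 517 and 516 CPM with DMSO, a small rise (0.23, SE 0.048, adjusted p = 0.000854).

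Cldn3 in labelled dKO cells had 8 counts in all with MI-503 and 6 with DMSO, too few to compare (ratio of scaled sums 1.42, 95% exact interval 0.432 to 4.96; edgeR adjusted p = 0.689). In WT cells it measured 1.81 and 1.10 CPM with MI-503 and 1.11 and 0.612 CPM with DMSO. These groups overlapped, and the call (log2 fold change 0.77, SE 0.31, adjusted p = 0.0436) ended with DESeq2 (adjusted p = 0.169), without WT MI-503 replicate 1 (0.36, adjusted p = 0.456) and without WT DMSO replicate 2 (0.40, adjusted p = 0.337).

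F11r and Cldn23 fell with MI-503 in both genotypes. F11r measured 162 and 167 CPM in dKO MI-503 and 313 and 298 CPM in dKO DMSO, a fall of 1.86-fold (log2 fold change -0.89, SE 0.045, adjusted p = 1.63e-09). In WT it measured 219.8 and 222 CPM with MI-503 and 418 and 415 CPM with DMSO, a fall of 1.89-fold (-0.92, SE 0.045, adjusted p = 3.53e-10). Cldn23 measured 1.81 and 1.51 CPM in dKO MI-503 and 3.64 and 3.60 CPM in dKO DMSO (-1.12, SE 0.14, adjusted p = 1.35e-05). WT cells had 2.02 and 1.89 CPM with MI-503 and 4.35 and 4.75 CPM with DMSO (-1.22, SE 0.14, adjusted p = 2.42e-06). For both genes the dKO MI-503 libraries were the lowest of all 8, although for Cldn23 they lay close to those of WT MI-503.

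Whether the change with MI-503 differed between the genotypes was tested by the interaction, the log2 fold change in labelled dKO cells minus that in WT. It passed for 3 of the 9 members, Cldn1, Cldn7 and Ocln, where 46.8% of all genes tested passed, 24.8% higher and 22.0% lower. The WT DMSO and dKO DMSO libraries enter both this test and the comparisons above, which are therefore not independent of it.

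Cldn1 went opposite ways in the genotypes. It fell to 2.08 and 2.06 CPM in dKO MI-503, against 6.23 and 5.40 CPM in dKO DMSO, which is 2.81-fold (log2 fold change -1.49, SE 0.12, adjusted p = 1.51e-07). The WT libraries had 11.5 and 11.05 CPM with MI-503 and 9.49 and 8.71 CPM with DMSO (0.31, SE 0.097, adjusted p = 0.011), a rise whose call ended without WT MI-503 replicate 1 (0.28, adjusted p = 0.0776) or WT DMSO replicate 2 (0.25, adjusted p = 0.0898). The interaction was -1.80 (SE 0.15, adjusted p = 6.21e-07).

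Ocln fell with MI-503 in both genotypes, less so in labelled dKO cells. It measured 16.6 and 18.1 CPM in dKO MI-503 and 25.2 and 23.8 CPM in dKO DMSO (log2 fold change -0.50, SE 0.067, adjusted p = 2.48e-05). WT cells had 31.9 and 32.1 CPM with MI-503 and 69.2 and 65.0 CPM with DMSO (-1.07, SE 0.064, adjusted p = 2.89e-09). Its interaction was 0.57 (SE 0.093, adjusted p = 0.000179). For Cldn7, which rose in both, the interaction was -0.41 (SE 0.11, adjusted p = 0.00806).

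The other 6 members did not pass the interaction test, with adjusted p from 0.134 for Tjp1 to 0.865 for Cldn3. The error of the interaction was small for F11r (0.023, SE 0.063) and Cldn4 (0.11, SE 0.079), and large for Cldn8 (0.15, SE 0.32) and Cldn3 (-0.28, SE 1.09). The interaction of Tjp1 was -0.13 (SE 0.069), and it passed with library size only (-0.29, adjusted p = 0.00265), without the filter on low counts (-0.23, adjusted p = 0.00342) and with a stricter filter (-0.21, adjusted p = 0.0174). Library size only moved the median interaction of all genes by -0.16 and lowered the share of higher genes among its calls to 37.2%, against 52.9% with TMM.

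**Figure D3:**
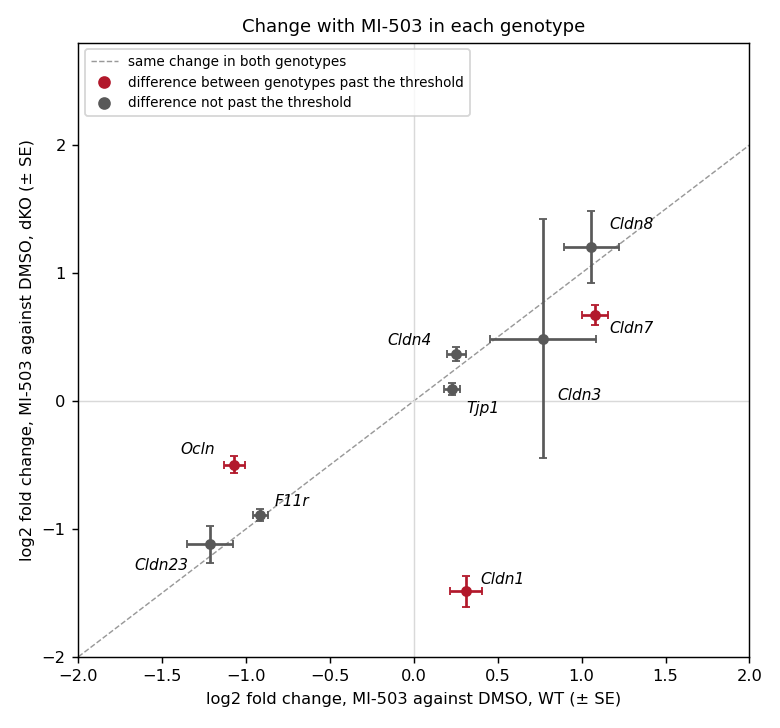
Each point is 1 gene, with its log2 fold change of MI-503 against DMSO in WT on the x axis and in dKO on the y axis, bars of ± SE and a dashed line where both are equal. Cldn1 lies far below the line (-1.49 in dKO and 0.31 in WT), Cldn7 below it and Ocln above it; these are the 3 genes whose difference between genotypes passed the threshold.

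Ordered from low to high, the group means of the members took 5 orders. Cldn3, Cldn4, Cldn8 and Tjp1 were lowest in dKO DMSO, then dKO MI-503, WT DMSO and WT MI-503, and Cldn1 differed from these in that dKO MI-503 was lowest. Cldn7 was lowest in dKO DMSO, followed by WT DMSO, dKO MI-503 and WT MI-503. F11r and Cldn23 were lowest in dKO MI-503, then WT MI-503, dKO DMSO and WT DMSO, and Ocln in dKO MI-503, then dKO DMSO, WT MI-503 and WT DMSO. Of the neighbours in these orders that a comparison above covers, those of Cldn3 and of Tjp1 in the dKO groups and of Cldn23 in the MI-503 groups did not pass, and those of Cldn3 in the WT groups overlapped.

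Among themselves, the members did not share 1 pattern over the 8 libraries. Likeness was measured as the root mean square difference of log2 CPM after centring each gene on its mean. Values are given as a description, since the libraries form 4 groups and share their scaling. Cldn23 and F11r were the closest pair (0.17), both falling with MI-503, followed by Cldn4 and Cldn7 (0.33), both higher with it, and Cldn4 and Tjp1 (0.36). Cldn3 and Cldn23 were furthest apart (1.97). The nearest genes outside the list were Glis2 and Sh3bp5 for Cldn4 (0.041 and 0.049), Gramd4 and Dtnb for Cldn7 (0.076 and 0.081), Aplp2 and Cd47 for Ocln (0.063 and 0.063), Arpc5l and Mfsd6 for F11r (0.054 and 0.058), Tent5a and Ftx for Cldn23 (0.065 and 0.082) and Pgap2 and Ccdc120 for Tjp1 (0.086 and 0.096), out of 9786 genes compared. For Cldn1 the nearest were Sult2b1 and Crybg2 (0.21 and 0.25), for Cldn3 Arhgef10l and Cysrt1 (0.22 and 0.28) and for Cldn8 the pseudogene Olfr1372-ps1 and Cgn (0.085 and 0.15). Cgn encodes cingulin, itself a tight junction protein that binds ZO-1.

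Other genes of the tight junction were taken from a list of 57, of which 56 had a row and 41 passed the filter. In labelled dKO cells in DMSO, 24 of these 41 fell, 12 rose and 5 did not pass, with a median log2 fold change of -0.38. Over all genes tested, 35.8% fell and 29.6% rose in that comparison. With MI-503 in labelled dKO cells 17 fell, 11 rose and 13 did not pass, where 26.5% of all genes fell and 29.1% rose. In WT 16 fell, 15 rose and 10 did not pass, where 33.7% of all genes fell and 35.2% rose. Of 13 scaffolds, 9 fell and 3 rose in DMSO, and of 10 genes of the polarity complexes 5 fell and 5 rose. The rises in DMSO include the scaffold gene Amot and the polarity gene Pard3b, which passed the filter only through their dKO libraries. Cldn15, a fall in DMSO and with MI-503 in WT, passed only through its WT DMSO libraries. Cldn9, a rise with MI-503 in WT, passed only through its WT MI-503 libraries. The direction of these calls follows from the filter and is no result. Few counts also lay behind the falls of Jam2, Clmp and Esam in DMSO. In the dKO DMSO libraries they had 6 and 5, 2 and 4, and 5 and 11 counts. The rise of Igsf5 likewise rested on 14 and 9 counts in the WT DMSO libraries.

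Cingulin and its paralog were the scaffolds with the largest falls among those over 5 CPM. Cgn measured 4.58 ± 0.275 CPM in dKO DMSO and 24.4 ± 1.53 CPM in WT DMSO, a fall of 5.32-fold (log2 fold change -2.41, adjusted p = 1.49e-11). Cgnl1, the paralog paracingulin, measured 15.4 ± 0.137 CPM in dKO DMSO and 89.4 ± 3.89 CPM in WT DMSO, a fall of 5.82-fold (-2.54, adjusted p = 1.25e-13). Both rose with MI-503. Cgnl1 measured 34.8 ± 0.456 CPM in dKO MI-503 (1.18, adjusted p = 5.7e-10) and 340.9 ± 0.219 CPM in WT MI-503 (1.93, adjusted p = 6.54e-13). Tjp3, which encodes the scaffold ZO-3, fell 1.55-fold in DMSO (-0.63, adjusted p = 0.000629).

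Cldn6, a claudin of embryonic epithelia, rose in labelled dKO cells in DMSO, where the 6 claudins among the members were lower. It measured 77.9 ± 0.0977 CPM in dKO DMSO and 9.38 ± 0.0475 CPM in WT DMSO, a rise of 8.31-fold (log2 fold change 3.05, adjusted p = 2.88e-14). With MI-503 it rose further, to 245.6 ± 4.62 CPM in labelled dKO (1.66, adjusted p = 6.85e-12) and to 46.7 ± 0.523 CPM in WT cells (2.32, adjusted p = 3.89e-13). Of the 17 other claudins with a row, 4 passed the filter, and the other 13 had too few counts to be tested. Cldn12, named after its values were seen, went the other way from Cldn6. It measured 96.4 ± 4.86 CPM in dKO DMSO and 145 ± 4.16 CPM in WT DMSO (-0.59, adjusted p = 2.99e-07). With MI-503 Cldn12 fell in both genotypes.

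Among the partners of ZO-1 and cingulin, Arhgef2, the RhoA activator GEF-H1 that cingulin holds inactive, rose in labelled dKO cells in DMSO (97.2 ± 1.17 CPM in dKO DMSO and 52.6 ± 0.871 CPM in WT DMSO; log2 fold change 0.89, adjusted p = 1.82e-09). Its change with MI-503 differed between the genotypes (interaction -1.003, adjusted p = 8.41e-08). Arhgef11, another RhoA activator, bound by ZO-1, fell with MI-503 in labelled dKO cells (39.7 ± 0.945 CPM in dKO MI-503 and 77.7 ± 0.719 CPM in dKO DMSO; -0.97, adjusted p = 3.74e-09). Cxadr, an adhesion protein of the JAM family and the receptor of coxsackievirus and adenovirus, fell with MI-503 in labelled dKO (81.1 ± 3.17 CPM in dKO MI-503 and 148.8 ± 7.42 CPM in dKO DMSO; -0.88, adjusted p = 1.16e-08) and in WT cells (124 ± 3.02 CPM in WT MI-503 and 398.8 ± 18.1 CPM in WT DMSO; -1.68, adjusted p = 6.66e-12), as F11r did. The angiomotin family gene Amotl2 fell with MI-503 in WT (47.8 ± 3.14 CPM in WT MI-503 and 162.5 ± 0.469 CPM in WT DMSO; -1.76, adjusted p = 7.56e-10). The largest interactions upward were those of Amotl2 (1.43, adjusted p = 1.06e-06) and of the scaffold Mpdz (0.97, adjusted p = 6.14e-07), and the largest downward that of the polarity protein gene Crb3 (-1.18, adjusted p = 0.000115), among genes over 5 CPM.

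Transcription factors that are known to repress or activate junction genes were also counted. Of 6 repressors, Snai1 did not pass the filter on low counts and Twist1 passed it only through its dKO libraries. Of the other 4, 3 rose and 0 fell in labelled dKO cells in DMSO, where 29.6% of all genes rose and 35.8% fell. Snai2, known in epithelia for repressing Cdh1 and claudin genes, measured 318 ± 11.5 CPM in dKO DMSO and 135 ± 4.59 CPM in WT DMSO (log2 fold change 1.23, adjusted p = 4.57e-11). Cdh1 itself was also higher in labelled dKO cells in DMSO (edgeR log2 fold change 0.57, adjusted p = 3.78e-08). A part of Snai2 in the levels of these genes was not tested. Zeb2 measured 15.7 ± 0.705 CPM in dKO DMSO and 1.72 ± 0.213 CPM in WT DMSO (3.19, adjusted p = 2.09e-10). Twist1 is given as values only, 3.34 ± 0.288 CPM in dKO DMSO and 0.099 ± 0.0939 CPM in WT DMSO. Twist2 rose too (1.04, adjusted p = 1.35e-07). With MI-503, Snai2, Zeb2 and Twist2 fell and 0 repressors rose in each genotype, where 26.5% of all genes fell in labelled dKO and 33.7% in WT cells. Zeb1 was lower with MI-503 too, but it is not counted, since it passed the filter only through its DMSO libraries. Twist1 did not pass the threshold with MI-503 in either genotype. Snai2 fell to 77.2 ± 0.46 CPM in dKO MI-503 (-2.04, adjusted p = 2.1e-12) and to 49.9 ± 0.735 CPM in WT MI-503 (-1.44, adjusted p = 1.07e-11).

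Of 9 epithelial activators, 2 rose, 3 fell and 4 did not pass in labelled dKO cells in DMSO. Among all genes tested, 65.4% were called there, 29.6% higher and 35.8% lower. Grhl1 (18.7 ± 0.139 CPM in dKO DMSO and 60.0 ± 0.615 CPM in WT DMSO) and Elf3 (49.4 ± 2.19 CPM in dKO DMSO and 86.2 ± 5.72 CPM in WT DMSO) fell, by 1.69 and 0.80 on the log2 scale, with adjusted p of 1.08e-10 and 2.46e-08. Klf4 was the third, and its fall (-0.16, adjusted p = 0.0347) turned to 0.066 with library size only and lost its call with RLE size factors (adjusted p = 0.0982) and DESeq2 (0.150), with both other filters, in a fit of only these groups and without dKO DMSO replicate 1 or either WT DMSO replicate. Grhl2 and Klf5 rose, by 0.43 and 0.58 on the log2 scale (adjusted p = 8.57e-06 and 4.4e-08). With MI-503, 7 fell and 2 rose in labelled dKO cells, where 26.5% of all genes fell and 29.1% rose. In WT 6 fell and 2 rose, where 33.7% of all genes fell and 35.2% rose. Elf3 was among those that rose, by 0.34 in labelled dKO (adjusted p = 0.000153) and 0.78 in WT cells (adjusted p = 1.87e-08). Genes of these lists named here outside the rule for named genes were chosen after their values were seen, and binding of any factor to the members' promoters was not analysed here.

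**Figure D4:**
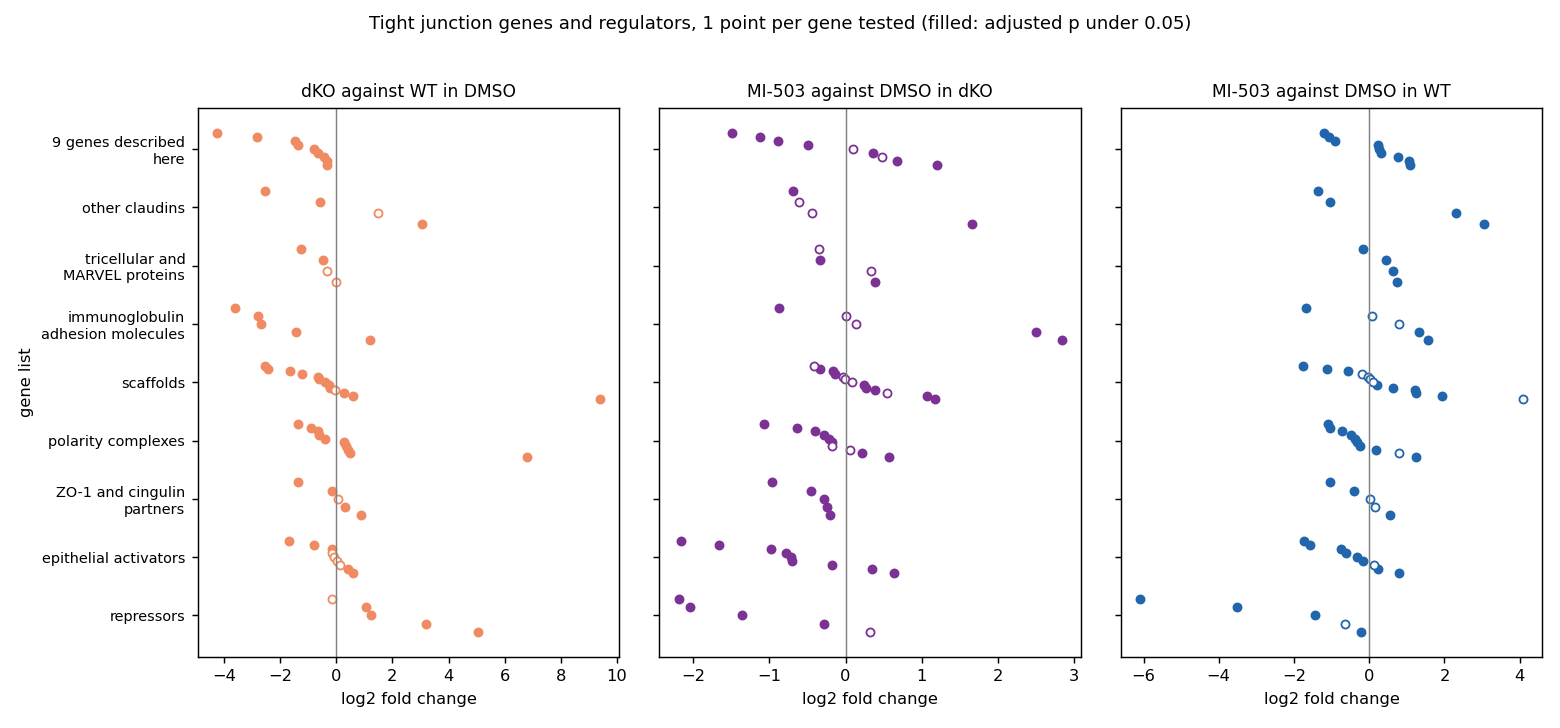
Each point is 1 gene tested, with its log2 fold change on the x axis and the gene lists down the y axis; panels show dKO against WT in DMSO and MI-503 against DMSO in dKO and in WT, and filled points passed the threshold. In the first panel the 9 members all lie left of 0 and 4 of the 5 repressors right of it. Among these, Cldn3 and Twist1 passed the filter only through the genotype in which they are high, so their side is no result. The points beyond 5 are Amot, Pard3b and Twist1, which had few or no counts in WT DMSO, as Zeb2 at the far left of the last panel had in WT MI-503, so their fitted size is no measure.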

How the data were processed

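Gene-level read counts were deposited by the authors for 8 polyA RNA-seq libraries, without normalization: all values are whole numbers and column totals differ. For the series, the submitters' processing notes name the aligners STAR and Bowtie2, the builds GRCm38 and mm10, and deepTools, MACS3 and SICER. Which program counted the reads, with which annotation and strand setting, was not stated, so overlapping or antisense genes are uncertain. The other 32 of 40 samples in the series were not analysed here. Of 53465 identifiers, 53274 had a symbol, and 1 row without an identifier was left out. Positions are those of RefSeq on GRCm38.p6, matched by symbol.

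Counts were fitted with edgeR 4.0.16 in R 4.3.3. The filter filterByExpr (minimum count 10, minimum total 15) kept 16921 genes. A quasi-likelihood model with TMM scaling and 1 mean per group left 4 residual degrees of freedom, with a biological coefficient of variation of 5.14%. The prior count of fold changes was 0.125, and SE was taken as the absolute log2 fold change divided by the root of F. With 2 libraries against 2, an exact permutation test (two-sided) cannot go below p = 0.333. Each result was recomputed with RLE size factors, with library size only, with DESeq2 1.42.0, with other filters, on only the groups compared, with a replicate block and without each library. The fit was also run on simulated data with few changed genes and the same spread for every gene. The data here have many more called genes, so that run says nothing about the scaling.

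The members, lists and tests were chosen with earlier results of these data known. Besides the members, the rule named, per contrast and direction, the 2 other tight junction genes with the largest change among those called with a mean of at least 5 CPM, and for each member the 2 most alike genes.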

Additional observations from a re-analysis of the deposited data

Results flagged for a closer look

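The change with MI-503 differed between the genotypes for 3 of the 9 members by the edgeR interaction test, adjusted over all genes, in which 46.8% of all genes passed. For Cldn1 the interaction was -1.80 on the log2 scale (adjusted p = 6.21e-07): both dKO MI-503 libraries lay below both dKO DMSO libraries, while both WT MI-503 libraries lay above both WT DMSO libraries. For Ocln it was 0.57 (adjusted p = 0.000179), with lower libraries under MI-503 in both genotypes. For Cldn7 it was -0.41 (adjusted p = 0.00806), with higher libraries under MI-503 in both. Groups of 2 libraries are too small for a test of single outlying libraries.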

How the results depend on the processing

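Of 521 values of the 9 members recomputed under the alternatives, 487 kept their direction and their side of the threshold, 16 lost the call, 3 gained it and 15 changed sign. All 15 that changed sign were interactions that had not passed. F11r went to -0.0081 with RLE size factors, -0.14 with library size only, -0.010 with DESeq2, -0.074 with no filter and -0.052 with the stricter filter, and Cldn4, Cldn8 and Cldn23 to -0.049, -0.013 and -0.066 with library size only, Cldn23 also to -0.0039 with no filter. Leaving out single libraries gave interactions from -0.012 to 0.059 for F11r, from -0.049 to 0.22 for Cldn23, from -0.034 to 0.32 for Cldn8 and from -0.77 to 0.22 for Cldn3. The cause of these changes was not tested. With no filter, 42.7% of the interactions called were higher, against 52.9% with it. Of 499 recomputed values of other genes named, 487 were unchanged in this sense, 11 lost the call and 1, the difference of Klf4 in DMSO, changed sign (0.066 with library size only). The count of members called, Cldn3 included, ran from 8 to 9 over the libraries left out for dKO against WT in DMSO and from 7 to 9 for MI-503 in WT, and was 7, 8 and 3 in each such fit for MI-503 in dKO, dKO against WT in MI-503 and the interaction. Counts over all genes ran from 9910 to 10505 for dKO against WT in DMSO, 7656 to 8381 for dKO against WT in MI-503, 8157 to 8700 for MI-503 in dKO, 10539 to 10910 for MI-503 in WT and 6730 to 7614 for the interaction. The labels do not say that replicate numbers 1 and 2 pair libraries across groups, and the deviations of same-numbered libraries correlated across 10123 genes at 0.40 to 0.45 among 3 groups but at -0.48 to -0.61 between these and dKO DMSO. With the replicate number as a block, 8, 8, 7, 9 and 3 members were called in these 5 comparisons, in that order, Cldn3 included. Over all genes, 10798, 8971, 9115, 11459 and 7572 were called. Of the member calls the block ended only that of Cldn23 in DMSO. For dKO against WT, Cldn3 passed the filter only through WT, so its part in all these member counts is no sign of stability. Without Cldn3, the main fit called 8 members in DMSO and 7 in MI-503. The fit of only the groups compared left Cldn3 untested for MI-503 in dKO. Cldn3, Cldn8 and Cldn23, with the fewest counts, have the widest errors.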

Other observations

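Beside the tight junction, EpCAM, which binds claudin-7, and a surface protease were measured. Epcam measured 306 ± 0.0178 CPM in dKO MI-503 and 225.7 ± 0.764 CPM in dKO DMSO, and 359.9 ± 8.87 CPM in WT MI-503 and 229 ± 1.41 CPM in WT DMSO, so it rose with MI-503 in both genotypes (edgeR log2 fold change 0.44, adjusted p = 9.58e-07, and 0.65, adjusted p = 7.34e-09), as Cldn7 did. Prss8, the gene of the membrane protease prostasin, measured 0.162 ± 0.0502 CPM in dKO DMSO and 11.5 ± 1.15 CPM in WT DMSO (log2 fold change -6.15, adjusted p = 4.54e-12). It rose with MI-503 to 0.772 ± 0.0834 CPM in labelled dKO (2.26, adjusted p = 1.59e-05) and to 25.3 ± 1.74 CPM in WT cells (1.13, adjusted p = 1.27e-07).

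Genes of the adherens junction, the neighbouring belt built on E-cadherin, were called in DMSO about as often as all genes: of 9 tested, 3 rose, 3 fell and 3 did not pass in labelled dKO cells, where 29.6% of all genes rose and 35.8% fell. Cdh1, the gene of E-cadherin, was among those that rose (edgeR log2 fold change 0.57, adjusted p = 3.78e-08). With MI-503 Cdh1 went opposite ways in the genotypes, as Cldn1 did. It measured 282 ± 3.88 CPM in dKO MI-503 and 494.6 ± 3.14 CPM in dKO DMSO (log2 fold change -0.81, adjusted p = 2.39e-09), and 389.6 ± 0.209 CPM in WT MI-503 and 333 ± 4.77 CPM in WT DMSO (0.22, adjusted p = 0.000277). The interaction was -1.03 (adjusted p = 1.93e-08). These genes were chosen after their values were seen.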
